A study of Mus musculus with 49 samples.

Results

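Letm1, which encodes an ion exchange protein of the inner mitochondrial membrane, was followed in single late 2-cell mouse embryos together with 8 genes of the same family or of mitochondrial calcium handling. The 9 genes are Letm1, its paralogs Letm2 and Letmd1, the uniporter genes Mcu, Smdt1, Micu2 and Mcur1, the exporter gene Slc8b1, and Ghitm. They are 9 of the 54838 genes in the count tables, found by their symbols in the gencode annotation of GRCm38. Letm1 was chosen by its measured values, because it is lower after loss of function (LOF) of FOXJ3 and after LOF of TBP. Its own changes in these contrasts are therefore described without a test, and the question asked of the other 8 genes, called partners here, is whether they follow it.

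Calcium enters the mitochondrial matrix through the uniporter, whose pore is MCU. EMRE, the product of Smdt1, holds the pore in its active form and ties it to gatekeepers such as MICU2, which keep it shut at resting calcium. MCUR1 is a further inner membrane protein that promotes uptake, and the sodium/calcium exchanger NCLX, the product of Slc8b1, returns calcium to the cytosol. LETM1 exchanges cations for protons and is needed for normal mitochondrial volume. GHITM, also known as TMBIM5, is the mitochondrial member of the TMBIM family of membrane proteins. Fertilization sets off calcium oscillations in the egg, and mitochondria take up part of that calcium and raise ATP production.

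The embryos were F1(C57BL/6JxCBA/H) mouse embryos, collected as zygotes 17 to 18 h after hCG, injected with an antibody and, 4 h later, with mRNA for mCherry-Trim21, and lysed singly at 48 h after hCG. In this Trim-Away approach the ubiquitin ligase Trim21 degrades the protein that the antibody binds. TBP LOF embryos (9 by the labels, 9 kept) received a mouse monoclonal antibody to TBP, and their CONTROL embryos (10, of which 9 were kept) received normal mouse IgG. FOXJ3 LOF embryos (17, of which 16 were kept) received a rabbit polyclonal antibody to FOXJ3, and their CONTROL embryos (13, all kept) received normal rabbit IgG. The FOXJ3 embryos were made into libraries in 2 batches, with 9 LOF and 7 CONTROL embryos kept in batch 1 and 7 and 6 in batch 2. All 4 groups, CONTROL embryos included, thus carried the Trim21 mRNA. The TBP embryos came from 3 biological replicates and the FOXJ3 embryos from several independent experiments, and the embryos of each are not identified in the labels or methods, so that p-values measure the spread between single embryos, within which embryos of 1 experiment may be alike.

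Between 1103569 and 5434808 reads of transcript 5' ends were counted in the 47 embryos kept. The 8 late 2-cell markers were read in all groups, with a median summed normalized count of 1096 in TBP LOF and 576 in TBP CONTROL embryos, and of 658 in FOXJ3 LOF and 812 in FOXJ3 CONTROL embryos. Upon TBP LOF 2 of them rose with ERCC size factors, Tcstv3 (log2 fold change 1.77) and Usp17lc (1.38), and 5 with TMM. Of all features, 1.34% and 12.8% were called higher. With ERCC size factors 2 of the 8 markers lay below 0 without being called, Zscan4c (-1.24, adjusted p = 0.104) and Tdpoz4 (-0.72, adjusted p = 0.411). With TMM, Zscan4c was still below 0 (-0.62). Upon FOXJ3 LOF 0 markers passed and all 8 values were below 0. Of the 8 cumulus cell markers 5 had no read in any TBP LOF embryo, 4 had none in any TBP CONTROL embryo, 4 in any FOXJ3 LOF embryo and 3 in any FOXJ3 CONTROL embryo. The summed normalized count of the cumulus markers ranged from 0 to 45.1 in TBP CONTROL and from 0 to 11.4 in TBP LOF embryos (medians 8.60 and 1.83), and from 0 to 36.4 in FOXJ3 CONTROL and 0 to 24.9 in FOXJ3 LOF embryos (medians 11.3 and 5.56). Of the 3 cumulus markers that could be tested, Tnfaip6 fell upon TBP LOF (log2 fold change -2.46, adjusted p = 0.00865), which was not called with TMM (adjusted p = 0.101), and 0 passed upon FOXJ3 LOF. Transcripts of the mitochondrial genome took 4.59% ± 0.93 (SD) of reads in FOXJ3 CONTROL, 4.40% ± 1.29 in FOXJ3 LOF, 5.62% ± 1.79 in TBP CONTROL and 6.87% ± 1.93 in TBP LOF embryos. Trim-Away acts on protein, so mRNA of the targeted gene does not check the labels. Foxj3 mRNA had a normalized count of 295 ± 60.6 (SD, n = 16) in FOXJ3 LOF and 249 ± 56.3 (n = 13) in CONTROL embryos (adjusted p = 0.854), and Tbp mRNA was lower in TBP LOF embryos, at 76.3 ± 50.3 against 335 ± 147 (n = 9 each, log2 fold change -2.14 with SE 0.37, adjusted p = 5.3e-06). Reads of the injected mCherry-Trim21 had a median of 352 CPM (reads scaled to the library total) in FOXJ3 LOF against 819 CPM in CONTROL embryos of batch 1, and of 316 against 1577 CPM in batch 2. In the TBP experiment the medians were 1390 CPM upon LOF and 769.7 CPM in CONTROL embryos. The part of these differences, and of those in the markers, in the results was not tested, beyond the fits with the mCherry-Trim21 level as a covariate given for Letm1 and its partners.

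In GRCm38, Letm1 lies on the minus strand at chr5:33739673-33782817, and Slc8b1 on the same chromosome at chr5:120511168-120534024. The other members lie on 5 further chromosomes, with Ghitm (chr14:37120092-37135272, minus strand) and Micu2 (chr14:57916261-57999262, minus strand) on one and Smdt1 (chr15:82338959-82349091, plus strand) and Letmd1 (chr15:100469023-100479164, plus strand) on another. The first 6785 bases of Smdt1 are shared with Pheta2 on the same strand, and Letm2 and Mcu overlap genes on the opposite strand near their starts (D830025C05Rik and Gm10322). Letm2 also holds Gm45570 on its own strand (653 bases), and Letm1 overlaps the pseudogenes Gm10059 (171 bases) and Gm30708 (312 bases) on the opposite strand. Smdt1 also holds n-R5s41 on its own strand (119 bases). Strand cannot separate the overlaps on the same strand, and the strand setting of the counting is not stated. Reads of these 4 genes are thus less certainly theirs. Mcu lies at chr10:59446984-59616692, Mcur1 at chr13:43538393-43560191 and Letm2 at chr8:25578490-25597582, all on the minus strand. No RefSeq promoter window was found for Slc8b1 or Letm2. For the other 7 of the 9 members, promoter windows of GRCm38.p6 were found, from 250 bases before to 50 after a RefSeq start. Those of Letm1 (chr5:33782668-33782967, minus strand), Ghitm (the first of 3 windows, chr14:37135273-37135572, minus strand), Smdt1 (chr15:82345796-82346095, plus strand) and Mcu (chr10:59616643-59616942, minus strand) are shown 5' to 3', since Letm1 is the gene that was lower in both experiments, Ghitm and Smdt1 fell upon TBP LOF, and Mcu did not. The Smdt1 window lies past the end of Pheta2, as its RefSeq start is further along than the gencode start given here. Capitals mark the repeated element described after the sequences.
Letm1: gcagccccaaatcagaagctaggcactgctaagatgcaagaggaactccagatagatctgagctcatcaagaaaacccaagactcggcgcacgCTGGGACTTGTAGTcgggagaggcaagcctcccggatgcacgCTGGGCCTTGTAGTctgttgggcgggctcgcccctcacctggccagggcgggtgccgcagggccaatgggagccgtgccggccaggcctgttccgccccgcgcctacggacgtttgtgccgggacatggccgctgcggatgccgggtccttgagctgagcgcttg
Ghitm: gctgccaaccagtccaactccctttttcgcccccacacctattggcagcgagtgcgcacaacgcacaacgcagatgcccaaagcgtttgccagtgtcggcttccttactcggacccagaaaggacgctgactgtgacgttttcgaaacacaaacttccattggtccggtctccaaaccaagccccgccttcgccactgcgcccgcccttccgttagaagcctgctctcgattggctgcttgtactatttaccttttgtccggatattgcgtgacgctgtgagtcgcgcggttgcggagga
Smdt1: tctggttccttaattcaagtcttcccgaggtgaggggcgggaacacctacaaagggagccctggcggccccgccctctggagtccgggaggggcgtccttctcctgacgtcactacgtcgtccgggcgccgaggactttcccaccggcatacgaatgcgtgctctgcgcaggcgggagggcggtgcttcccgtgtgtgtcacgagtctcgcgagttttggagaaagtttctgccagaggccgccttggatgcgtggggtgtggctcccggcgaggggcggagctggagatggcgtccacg
Mcu: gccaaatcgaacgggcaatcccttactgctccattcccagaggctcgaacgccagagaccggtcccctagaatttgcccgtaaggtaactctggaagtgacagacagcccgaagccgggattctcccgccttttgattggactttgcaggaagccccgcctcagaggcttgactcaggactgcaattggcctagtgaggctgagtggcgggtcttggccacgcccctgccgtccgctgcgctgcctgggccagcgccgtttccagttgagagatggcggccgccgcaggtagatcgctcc

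A TATA box was searched as TATAAA and the core of a forkhead site as TAAACA, each by itself and on either strand. A forkhead site is the kind of sequence that FOX proteins bind. The 9 windows of the 7 members held 0 matches to TATAAA, which 13.6% of all 32851 windows hold, and 0 matches to TAAACA, which 13.4% hold. Most windows of all genes lack each of these motifs too. Sequence outside the windows was not searched, nor were Slc8b1 and Letm2, which have no window. The Letm1 window holds the same element 2 times on its opposite strand, with its bases from -157 to -144 and from -115 to -102 counted from the start. It was noticed in the printed sequence and then searched as ACTACAA, any 2 bases and CCCAG on either strand. Of all windows, 0.612% hold it at least once and 0.0304% (10 windows) hold it 2 times or more, and no other member's window holds it.

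Letm1 was read in every embryo, with 1 to 176 reads in the FOXJ3 experiment and 5 to 187 in the TBP experiment. In FOXJ3 CONTROL embryos its normalized count (reads divided by the embryo's TMM size factor) was 25.05 at the lowest, 51.4 at the median and 142 at the highest, and in FOXJ3 LOF embryos 2.08, 22.1 and 34.5. The groups overlapped between 25.05 and 34.5, and 11 of 16 LOF embryos lay below the lowest CONTROL embryo. The means were 20.5 ± 8.96 (SD, n = 16) upon LOF and 64.6 ± 36.2 (n = 13) in CONTROL embryos. Letm1 was thus 3.13-fold lower (log2 fold change -1.64, SE 0.27). Of the features tested, 1.21% had a log2 fold change below that of Letm1.

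The CONTROL embryos had the larger SD together with the higher mean, and spread relative to the mean was not compared. In batch 1 they were at 25.05, 26.1, 30.0, 57.2, 94.0, 103 and 142, and in batch 2 they ranged from 35.2 to 101. FOXJ3 LOF embryos ranged from 8.56 to 30.4 in batch 1 and from 2.08 to 34.5 in batch 2. In batch 1 the ranges overlapped. In batch 2 the highest LOF embryo (34.5) was just under the lowest CONTROL embryo (35.2), and with ERCC size factors these ranges overlapped too (29.6 and 29.5). Fitted in batch 1 alone, the log2 fold change of Letm1 was -1.79 (SE 0.38), and in batch 2 alone -1.42 (SE 0.35). With the log2 level of mCherry-Trim21 as a further covariate it was -1.58 (SE 0.31), with ERCC size factors -1.39 (SE 0.30), and without any 1 embryo between -1.72 and -1.49.

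Upon TBP LOF, Letm1 had a normalized count (here reads divided by the size factor from the ERCC spike-ins) of 7.20 at the lowest, 16.2 at the median and 24.9 at the highest, against 19.8, 38.9 and 70.6 in TBP CONTROL embryos. Every LOF embryo was under the CONTROL median, and 5 of 9 were under the lowest CONTROL embryo. The means were 16.9 ± 6.63 and 44.1 ± 17.9 (SD, n = 9 each), a log2 fold change of -1.40 with SE 0.36, or 2.63-fold lower. Most features moved the same way, with a median log2 fold change of -0.72 over the 19356 features tested, and 29.1% of features had a lower value than Letm1. Relative to that median Letm1 was lower by a log2 value of -0.68, and with TMM scaling, which centres the bulk of the features (their median became 0.11), its log2 fold change was -0.54 (SE 0.30).

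On 1 scale for all 47 embryos, ERCC size factors over both experiments, the Letm1 levels are given as a description, since the choice of Letm1 fixed that the LOF means lie lower. The CONTROL cells of group and batch had 58.3 ± 33.9 (FOXJ3 batch 1, n = 7), 50.6 ± 18.3 (FOXJ3 batch 2, n = 6) and 48.3 ± 19.2 (TBP, n = 9), and neighbours in that order differed by less than their SD. The LOF cells had 20.8 ± 12.1 (FOXJ3 batch 1, n = 9), 20.2 ± 8.77 (FOXJ3 batch 2, n = 7) and 18.3 ± 7.14 (TBP, n = 9), which likewise differed by less than their SD. Single embryos of CONTROL and LOF overlapped, the lowest CONTROL embryo being at 19.1 and the highest LOF embryo at 43.0. This scale takes the spike-in amount as equal in all embryos. The paper used a different aliquot of the lysis buffer for FOXJ3 batch 2, and equal spike-in amounts between batches and experiments were not tested.

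**Figure D1:**
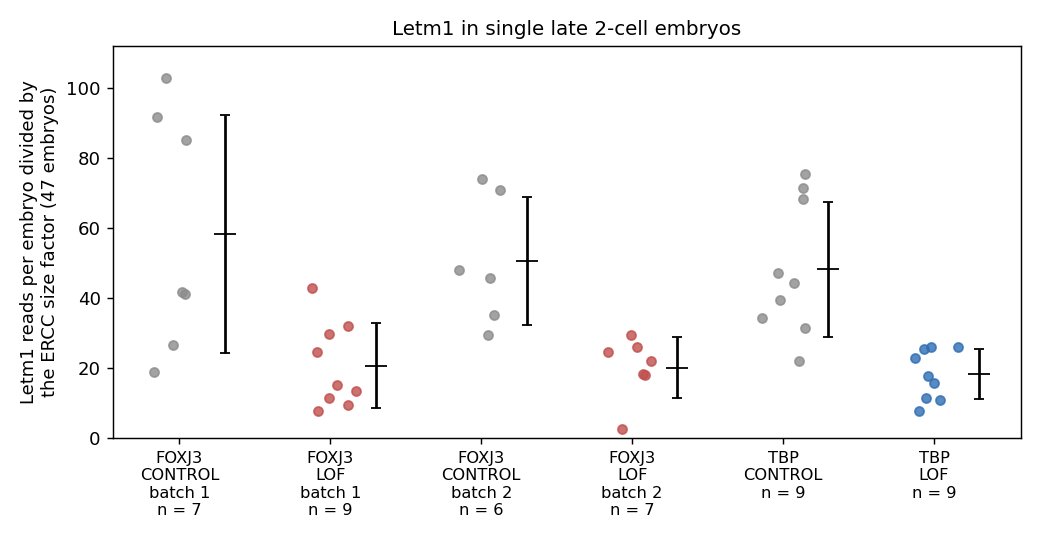
Letm1 reads of each embryo divided by its ERCC size factor (linear y axis) in the 6 cells of group and library batch, with the mean and SD beside the points. The means of the CONTROL cells lie at 48.3 to 58.3 and those of the LOF cells at 18.3 to 20.8, on a scale that takes the spike-in amount as equal in all embryos.

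Of the 8 partners, 0 passed the test upon FOXJ3 LOF at an adjusted p of 0.05 by edgeR, and 0 by DESeq2. The same test called 0.0102% of the 19517 features tested, and 1134 features had an unadjusted p under 0.05. No partner was among the latter, the smallest unadjusted p being 0.0982 for Letm2. The partners' log2 fold changes lay between -0.70 and 0.22 with a median of -0.12, beside a median of -0.04 over all features.

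In the fit over both batches, the paralogs had the lowest values. Letm2 had a normalized count of 0 at the lowest, 5.66 at the median and 23.2 at the highest in FOXJ3 LOF embryos, against 0.97, 10.003 and 23.6 in CONTROL embryos. The CONTROL median exceeded 14 of the 16 LOF embryos. Its log2 fold change was -0.70 (95% interval -1.53 to 0.13, adjusted p = 0.899), and it was -0.21 (SE 0.50) in batch 1 and -1.31 (SE 0.68) in batch 2. Letmd1, whose product carries a LETM1-like domain, had 3.61, 6.43 and 17.1 against 0, 9.59 and 22.1, a log2 fold change of -0.52 (interval -1.24 to 0.19, adjusted p = 0.905), and its CONTROL median exceeded 13 of the 16 LOF embryos. Both genes are read at few counts in an embryo, at most 32 for Letm2 and 24 for Letmd1 in this experiment, and their intervals include no change as well as falls past -1 in log2.

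Among the uniporter genes, Mcu had a normalized count of 49.7 at the lowest, 122 at the median and 257 at the highest upon FOXJ3 LOF, against 32.8, 111 and 358 in CONTROL embryos. The groups overlapped over nearly their whole range, and the log2 fold change was -0.20 (interval -0.71 to 0.31). Smdt1 had 30.1, 83.9 and 122 against 36.4, 68.1 and 110, a log2 fold change of 0.19 (interval -0.20 to 0.58). Micu2 had 0, 17.3 and 41.4 against 8.42, 14.5 and 53.4, a log2 fold change of -0.10 (interval -0.83 to 0.63). Mcur1 had 23.7, 45.99 and 109 against 17.5, 52.5 and 112.5, a log2 fold change of -0.14 (interval -0.62 to 0.34). In each of these genes the LOF embryos spanned the CONTROL median. Within batches, Mcu, Micu2 and Mcur1 changed sign, Mcu from -0.61 (SE 0.32) in batch 1 to 0.37 (SE 0.30) in batch 2, Micu2 from -0.73 (SE 0.52) to 0.74 (SE 0.38) and Mcur1 from -0.35 (SE 0.35) to 0.15 (SE 0.27), and none of them passed the test in either batch.

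Slc8b1, the exporter gene, had a normalized count of 10.3 at the lowest, 27.6 at the median and 75.2 at the highest upon FOXJ3 LOF, against 5.68, 21.1 and 85.2 in CONTROL embryos (log2 fold change 0.22, interval -0.42 to 0.85). Ghitm had 202, 282 and 313 against 86.3, 243 and 698, with a log2 fold change of -0.07 (interval -0.46 to 0.32). With the level of mCherry-Trim21 as a further covariate the partners' values lay between -0.64 (Letm2) and 0.08 (Smdt1), and 0 passed.

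**Figure D2:**
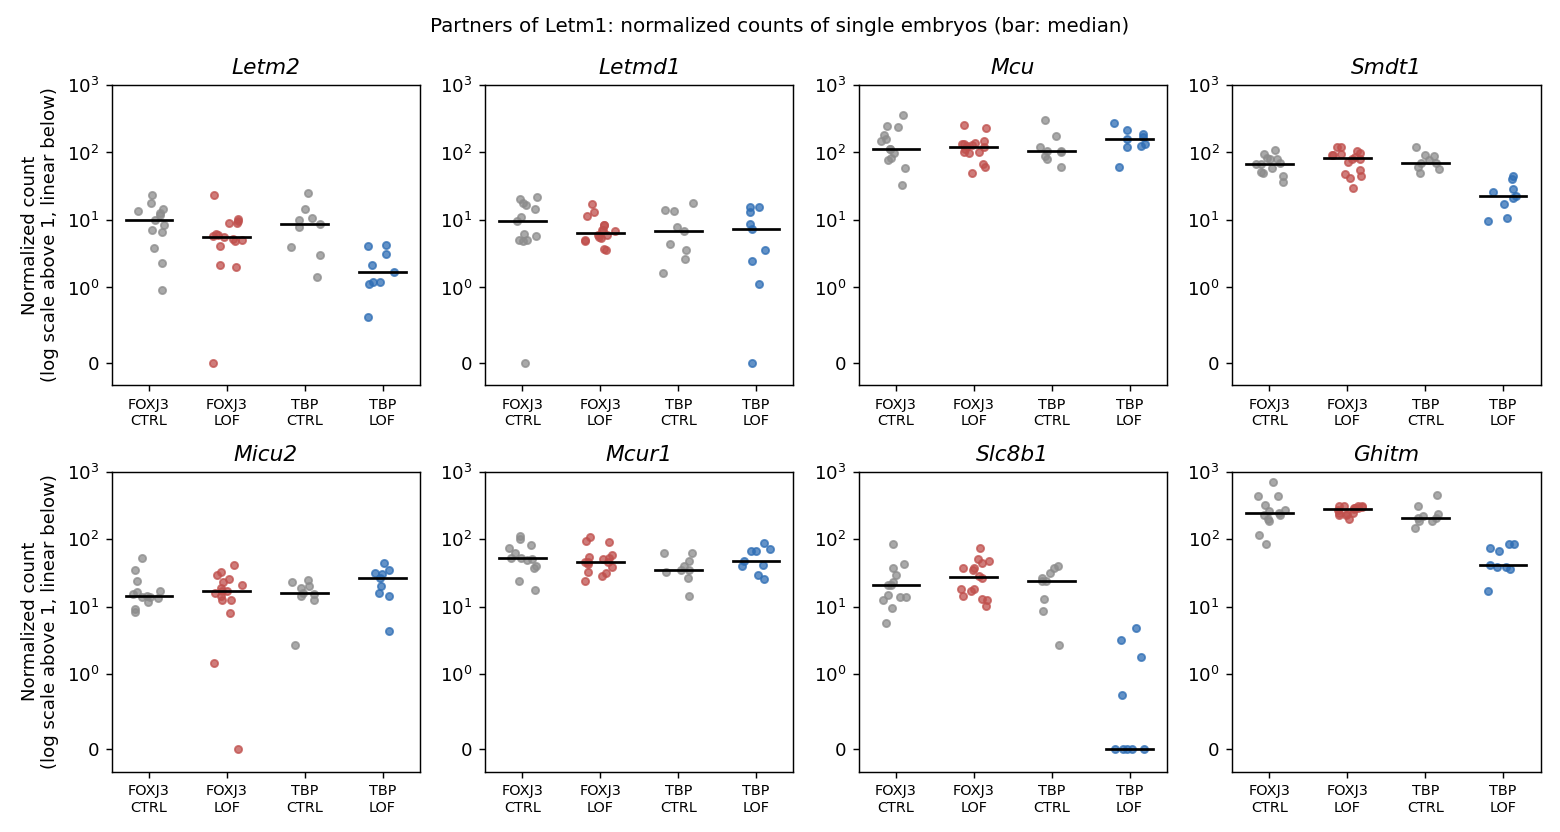
Normalized counts of the 8 partners in single embryos of FOXJ3 CONTROL and LOF (TMM) and TBP CONTROL and LOF (ERCC size factors), on an axis that is logarithmic above 1 and linear below, with the median as a bar. The FOXJ3 groups overlap in every panel, while Ghitm and Smdt1 of TBP LOF lie below all TBP CONTROL embryos and 5 TBP LOF embryos have no Slc8b1 read.

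Upon TBP LOF, 4 of the 8 partners fell (Slc8b1, Ghitm, Smdt1 and Letm2) and 0 rose with ERCC size factors. Of all features tested, 29.7% were called lower and 1.34% higher, so that the share of partners called lower stands beside a broad fall. The partners' median log2 fold change was -0.92, beside -0.72 over all features, and they ranged from -4.03 to 0.57. When mCherry-Trim21 was added to the fit, 4 partners were called lower and 0 higher, with Slc8b1 at -4.04, Ghitm at -2.25, Letm2 at -2.12 and Smdt1 at -1.80. The share of all features called in that fit is not given here, so these counts stand without one. With TMM scaling, 3 partners were called lower (Slc8b1, Ghitm and Smdt1) and 3 higher (Mcu, Micu2 and Mcur1), beside 12.7% of all features lower and 12.8% higher. The paper collected all these embryos at the late 2-cell stage. In its comparison with embryos of other stages, TBP LOF embryos lay nearer the earlier stages than CONTROL embryos, and the paper proposes a developmental delay. The part of such a delay in these values, and the cause of the lower values per embryo, were not tested. Values with ERCC size factors are per embryo, and those with TMM are relative to the bulk of the other transcripts.

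Slc8b1 changed the most. It was read in every TBP CONTROL embryo, with 2 to 33 reads and a normalized count of 2.69 at the lowest, 24.3 at the median and 39.9 at the highest. Of the TBP LOF embryos 5 had no read, and the other 4 had 1, 3, 4 and 8 reads, at most 4.85 as a normalized count. Every LOF embryo was under the CONTROL median, and 7 were under the lowest CONTROL embryo. The log2 fold change was -4.03 with SE 0.64 (adjusted p = 1.2e-06), 0.852% of features had a lower value, and without any 1 embryo the log2 fold change lay between -4.71 (without the LOF embryo with 8 reads) and -3.75. With TMM scaling it was -3.09 (SE 0.62, adjusted p = 0.000413).

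Ghitm had a normalized count of 17.0 at the lowest, 41.7 at the median and 83.7 at the highest in TBP LOF embryos, against 149, 204 and 446 in CONTROL embryos. No LOF embryo reached the lowest CONTROL embryo. The log2 fold change was -2.16 with SE 0.32 (adjusted p = 3.21e-07), or 4.47-fold lower, and with TMM scaling -1.31 (SE 0.22, adjusted p = 6.09e-05), again with no overlap. Among the 9 members it lay further from CONTROL than Letm1, at a value below which 11.004% of features lay.

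Smdt1, whose product EMRE the uniporter needs, had 9.75, 22.5 and 44.1 upon TBP LOF against 50.1, 69.9 and 121 in CONTROL embryos, again without overlap. Its log2 fold change was -1.67 with SE 0.34 (adjusted p = 7.73e-05), or 3.17-fold lower. With TMM scaling it was -0.79 (SE 0.25, adjusted p = 0.0184), with 7 of its 9 LOF values under the lowest CONTROL value.

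The pore gene Mcu and the regulators Micu2 and Mcur1 were not called lower. Mcu had a normalized count of 60.3 at the lowest, 158 at the median and 269 at the highest upon TBP LOF, against 60.1, 105 and 303 in CONTROL embryos, and 8 of 9 LOF embryos lay above the CONTROL median. The log2 fold change was 0.34 (interval -0.28 to 0.96, adjusted p = 0.448) with ERCC size factors and 1.25 (SE 0.26, adjusted p = 0.000733) with TMM. Mcur1 had 26.2, 47.9 and 88.8 against 14.3, 35.1 and 62.6, a log2 fold change of 0.42 (interval -0.24 to 1.09, adjusted p = 0.373). With TMM, Mcur1 was at 1.29 (SE 0.24, adjusted p = 0.000203) and all 9 LOF embryos lay above the highest CONTROL embryo.

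Micu2, the gatekeeper gene, was at 4.31, 26.3 and 43.9 upon TBP LOF against 2.69, 15.98 and 24.7, with 5 of 9 LOF embryos above the highest CONTROL embryo. Its log2 fold change was 0.57 (interval -0.26 to 1.40, adjusted p = 0.326) with ERCC size factors and 1.37 (SE 0.35, adjusted p = 0.00421) with TMM. These 3 genes were called higher with TMM and with DESeq2 size factors, which centre the bulk of the features, and not with ERCC size factors. On both scalings they lay high among all features, with 83.6% of features below Mcu, 85.4% below Mcur1 and 88.4% below Micu2 with ERCC size factors.

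Of the paralogs of Letm1, Letm2 was called lower and Letmd1 was not, and the difference between them was not tested. Letm2 had 0.61, 1.68 and 4.32 upon TBP LOF against 1.41, 8.60 and 25.05 in CONTROL embryos, with 1 to 7 reads in a LOF embryo. Its log2 fold change was -2.12 with SE 0.64 (adjusted p = 0.00746), and with TMM -1.19 (SE 0.58, adjusted p = 0.129). Letmd1 had 0, 7.28 and 15.8 against 1.65, 6.88 and 17.6, a log2 fold change of -0.17 with an interval from -1.36 to 1.03 (adjusted p = 0.875).

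**Figure D3:**
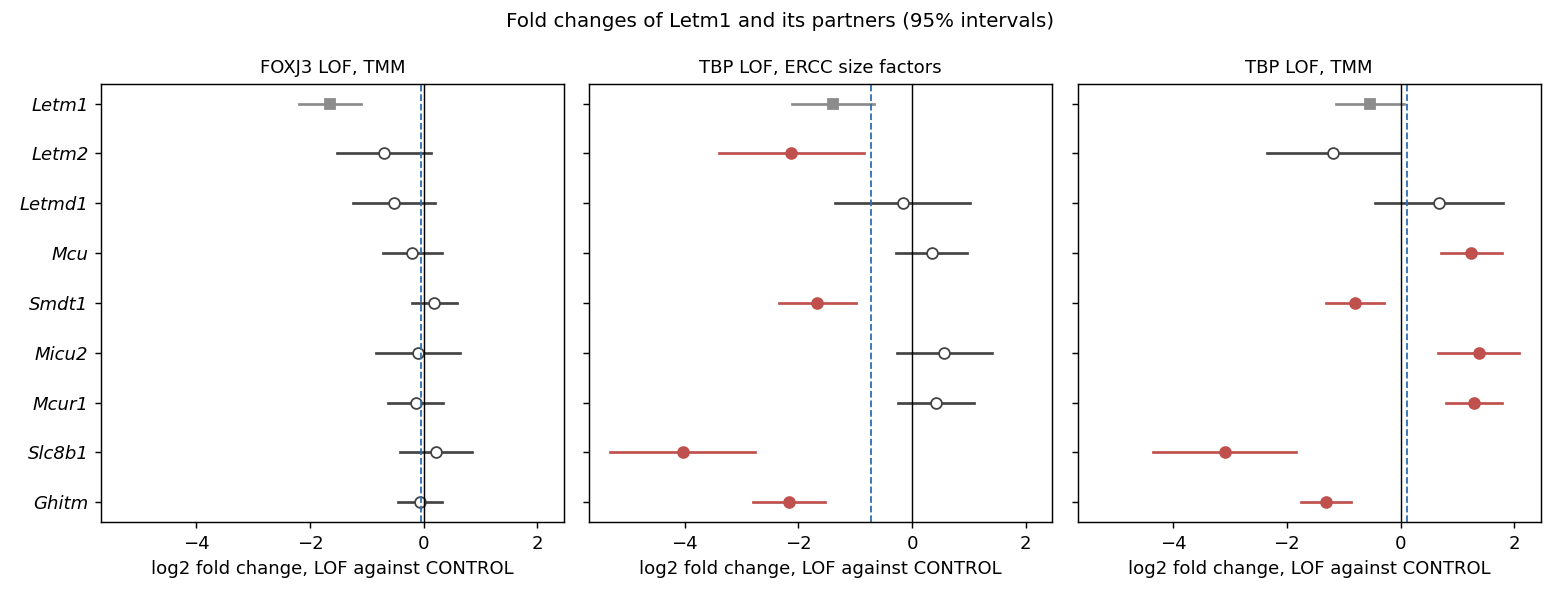
Log2 fold changes with 95% intervals of Letm1 (grey square, not tested) and its partners (red filled, adjusted p below 0.05, open otherwise) upon FOXJ3 LOF and, with ERCC size factors and with TMM, upon TBP LOF. The dashed line is the median of all features, at -0.04, -0.72 and 0.11, and Slc8b1, Ghitm and Smdt1 lie left of it in both TBP panels while Mcu, Micu2 and Mcur1 lie right of it.

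The TBP and FOXJ3 effects share no CONTROL embryos, and their difference was tested in 1 fit over the 6 cells of group and batch. With ERCC size factors it passed for 3 of 8 partners, beside 28.7% of the 19657 features, and the median difference over all features was -0.91 in log2. The difference, TBP minus FOXJ3, was -4.48 (interval -5.90 to -3.05) for Slc8b1, -2.34 (interval -3.14 to -1.55) for Ghitm and -2.07 (interval -2.87 to -1.27) for Smdt1. Their adjusted p were 1.92e-06, 5.29e-06 and 3.99e-05. For Letm2 the difference was -1.53 (interval -3.07 to 0.01, adjusted p = 0.135). With TMM the test also passed for Mcu (1.21) and Mcur1 (1.23), beside 20.9% of features.

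Other genes of mitochondrial calcium handling were read from 4 lists of 40 genes that are no members. Upon FOXJ3 LOF all 40 could be tested and 0 passed, with a median log2 fold change of -0.02 and a range from -0.75 to 0.81. Upon TBP LOF 39 could be tested, and 15 were called lower and 0 higher, beside 29.7% of all features lower and 1.34% higher. Their median was -0.77 beside -0.72 over all features. With TMM 6 were called lower and 7 higher, beside 12.7% and 12.8% of all features.

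Of the 14 calcium-regulated carriers and matrix enzymes, 8 fell upon TBP LOF, beside 29.7% of all features, with a median log2 fold change of -1.23. Slc25a25, an ATP-Mg/phosphate carrier that calcium activates, was at -1.67 (SE 0.32, adjusted p = 2.82e-05), Idh3b, a subunit of the NAD-dependent isocitrate dehydrogenase, at -1.98 (SE 0.41, adjusted p = 0.000121), and Pdp2, a phosphatase that activates pyruvate dehydrogenase, at -1.70 (SE 0.36, adjusted p = 0.000124). The list's name does not mean that calcium acts on every product of it, such as that of Pdp2. With TMM 4 of the 14 were lower, beside 12.7% of all features, and 0 higher. Upon FOXJ3 LOF the list had a median of 0.01.

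Of the 8 uniporter regulators and proteases, 3 fell upon TBP LOF, a share near the 29.7% of all features called lower. Yme1l1, a protease of the inner membrane, was at -1.98 (SE 0.36, adjusted p = 1.56e-05), Maip1, which aids the maturation of EMRE, at -1.53 (SE 0.39, adjusted p = 0.00167), and Afg3l2, a subunit of the matrix-facing protease that degrades free EMRE, at -0.95 (SE 0.37, adjusted p = 0.0436). With TMM, Yme1l1 was the only gene of this list called lower (-1.14), and Mcub, a paralog of Mcu that lowers uptake, the only one called higher (1.08, adjusted p = 0.0491, named after its value was seen). This is 1 of 8 each way, near the 12.7% of all features called lower and 12.8% called higher with TMM.

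Of the 13 genes of calcium transfer from the endoplasmic reticulum, 3 fell upon TBP LOF, a share below the 29.7% of all features called lower. Among them were Hspa9 (-1.28, SE 0.31, adjusted p = 0.000773) and Mfn2 (-1.01, SE 0.38, adjusted p = 0.0378), which encode the bridge between the IP3 receptor and VDAC and a tether. With TMM, 1 gene of this list was called lower, Hspa9 (-0.43) and Mfn2 (-0.21) did not pass, and 4 genes were called higher (beside 12.7% of all features lower and 12.8% higher), the outer membrane channels Vdac2 (1.26) and Vdac3 (0.66), the calcium pump gene Atp2a2 (0.90) and the IP3 receptor gene Itpr1 (0.83), which are named after their values were seen. Of the other TMBIM genes, relatives of Ghitm outside mitochondria, 4 of 5 could be tested, and only Tmbim6 fell (-0.79, SE 0.29, adjusted p = 0.0304). With TMM, Tmbim6 was at 0.06, and Grina (1.65) and Tmbim1 (0.94), named likewise, were called higher, 2 of the 4 tested beside the same 12.8% of all features.

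**Figure D4:**
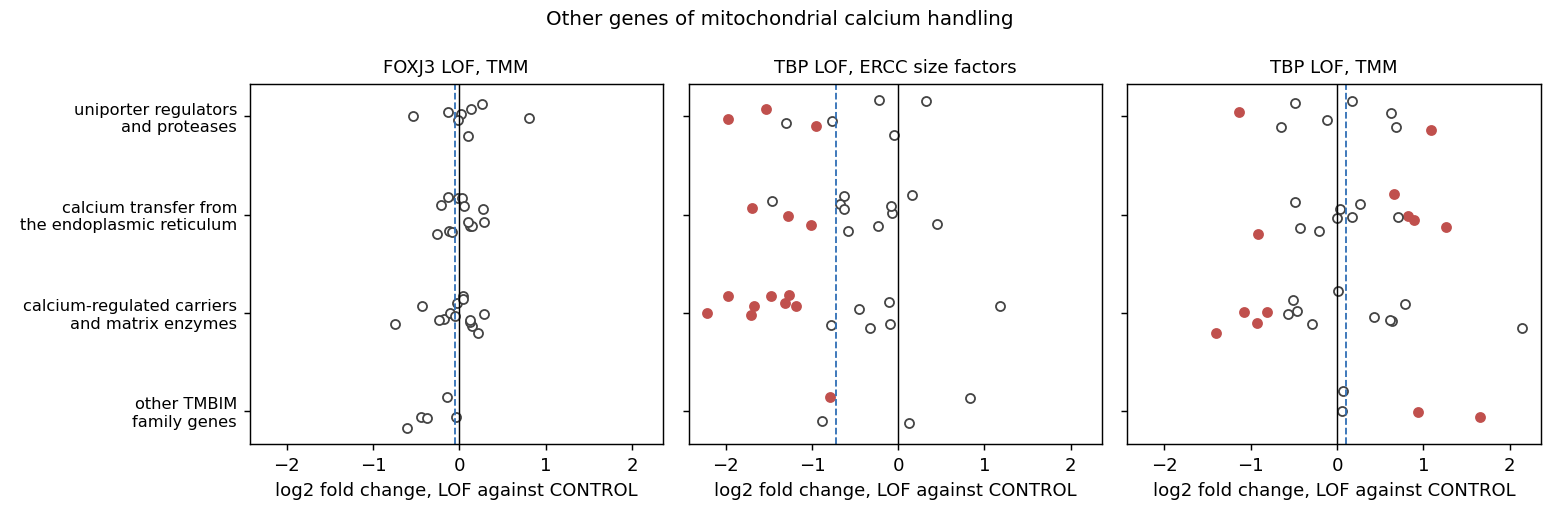
Log2 fold changes of the 40 other genes of mitochondrial calcium handling by list, each point a gene (red filled, adjusted p below 0.05), upon FOXJ3 LOF and, with ERCC size factors and with TMM, upon TBP LOF. No point is filled for FOXJ3, 15 lie filled on the lower side for TBP with ERCC size factors, and with TMM 6 are lower and 7 higher, with the median of all features dashed.

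Protein-coding genes within 100 kb of Letm1 did not move with it upon FOXJ3 LOF. Slbp, Tmem129, Tacc3 and Nsd2 had log2 fold changes between -0.21 and 0.18, and 0 of these 4 passed the test, while Fgfr3 had too few reads to be tested. Upon TBP LOF, Tacc3, a spindle protein gene, was at -1.39 (SE 0.32, adjusted p = 0.000497), much as Letm1, and Slbp, which encodes the histone stem-loop binding protein, at -0.74 (SE 0.30, adjusted p = 0.0473), near the median of all features. With TMM, Tacc3 was at -0.63 (adjusted p = 0.0319), while Slbp was at 0.07 (adjusted p = 0.830) and no longer passed. Tacc3 overlaps Tmem129 on the opposite strand, so their reads are uncertain. Fgfr3 was called higher, at 3.12 (SE 0.98, adjusted p = 0.0109), but it was read in only 5 of 9 LOF and 2 of 9 CONTROL embryos, and in LOF embryos its normalized count had a median of 0.81 and a highest value of 44.3. Tmem129 and Nsd2 did not pass, at -0.27 and -0.23.

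Across the 47 embryos, with the mean of each group and batch taken off log2(CPM + 1), the genes whose level was most like that of Letm1 were Hist1h2ao (Pearson's r = 0.73), Phkg1 (0.65), Cox5b (0.59), Spop (0.56) and Cby3 (0.56), out of 7019 genes with a mean of at least 10 CPM. The points share library depth and RNA yield, and r over all these genes had a median of 0.12, so these are descriptions. Of the partners that are read deeply enough, Ghitm had r = 0.32 and ranked at 636, Smdt1 0.16, Slc8b1 0.13, Mcur1 0.08, Micu2 -0.04 and Mcu -0.21. Each of these partners lay between those percentiles. Upon FOXJ3 LOF 0 of the 5 most similar genes passed the test. Upon TBP LOF 4 of the 5 were called lower, beside 29.7% of all features, which include genes under the 10 CPM asked of these 5. The 4 were Hist1h2ao (-1.55), Phkg1 (-1.60), Cox5b (-1.58), a subunit of the respiratory chain's cytochrome c oxidase, and Cby3 (-2.31). Spop was at -0.56 (adjusted p = 0.235).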

How the data were processed

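The authors trimmed the reads with Trimmomatic, separated 5' reads from internal ones, mapped the former with STAR 2.7.11a to GRCm38 with the mCherry-Trim21 construct added, and counted with TEcount. The deposited values are whole-number counts for genes and expected counts (estimated) for transposable elements, not normalized. The strand setting of the counting is not stated, so reads of genes that overlap on opposite strands can be assigned to either. Strand cannot separate genes that overlap on the same strand. Transposable element subfamilies were added to their families (1343). Embryos with at least 500000 reads, 1000 genes, at most 10% mitochondrial and 15% ERCC reads were kept. Features read (1 read or more) in at least 25% of an experiment's embryos entered edgeR 4.0.16 (R 4.3.3, quasi-likelihood, two-sided), Benjamini-Hochberg adjusted over all genes and families, at 0.05. FOXJ3 was scaled by TMM with batch as covariate, TBP by size factors over 42 ERCC transcripts, and the joint fit over 41. SEs come from the F statistic. Alternatives used DESeq2 1.42.0, other scalings and filters, covariates, single batches and leaving out each embryo, 47 refits in all. PCR reads lack molecular identifiers, so counting error understates noise.

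The members and lists were chosen with earlier results of these data known. Named genes are the members, the targeted genes, list genes that passed (for TBP the 3 of smallest adjusted p per list and direction), protein-coding genes within 100 kb of Letm1 and the 5 genes most like it. A few list genes that enter the counts are not reported here by name. Symbols and coordinates are from gencode M21. Python 3.11.15, pandas 2.3.3 and matplotlib 3.10.9 were also used.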

Additional observations from a re-analysis of the deposited data

Results flagged for a closer look

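Single embryos stood apart from their group in 6 of the 54 sets of a member and a group (FOXJ3 groups by batch) tested with Dixon's criterion. For normally distributed values, chance passes it in about 1 of 20. The counts were tested without a log scale and all 6 flagged embryos were high, so that rate may not hold for these skewed values. For Ghitm, FOXJ3 CONTROL batch 2 replicate 3 had a normalized count of 698, the next embryo 274, and without it the FOXJ3 log2 fold change was 0.12 (adjusted p = 0.951). For Mcu, FOXJ3 LOF batch 1 replicate 9 (230.1) and batch 2 replicate 7 (257) and TBP CONTROL replicate 6 (303) were high. Without the last, the TBP log2 fold change of Mcu was 0.61 (adjusted p = 0.140). Letm2 in FOXJ3 LOF batch 1 replicate 11 (23.2) and Mcur1 in FOXJ3 LOF batch 1 replicate 2 (90.7) were high as well, and leaving either out changed no call.

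The TBP and FOXJ3 effects differed, by the test of the difference, for Slc8b1 (-4.48 in log2, TBP minus FOXJ3), Ghitm (-2.34) and Smdt1 (-2.07). Each value lies below the median difference over all features, -0.91.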

How the results depend on the processing

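The counts of partners and pathway genes called upon FOXJ3 LOF were 0 under every alternative run. Upon TBP LOF, TMM and DESeq2 size factors with edgeR called 3 partners higher in place of 0 and 6 pathway genes lower in place of 15, and filterByExpr left 5 partners to test, of which 2 were called lower in place of 4. With TMM, 5 partners differed between the effects, in place of 3. Fewer genes entered the test under filterByExpr, and Slc8b1 and Letm2, which are read at few counts, were not among them upon TBP LOF. The cause of the shifts between scalings was not tested. Shares of all features called are given for the main, TMM and joint fits only, so counts from the other alternatives stand without one. The Letm1 value upon TBP LOF was -0.54 with TMM and -0.51 with DESeq2 size factors. All features called upon TBP LOF split into 5758 lower and 259 higher with ERCC size factors and 2452 and 2485 with TMM. Leaving out 1 embryo at a time gave 4 partners lower and 0 higher upon TBP LOF throughout, 12 to 16 pathway genes lower, and 0 calls among partners and pathway genes upon FOXJ3 LOF. The labels do not say that equal embryo numbers pair embryos. Deviations of same-numbered embryos correlated between -0.05 and 0.14 (TBP, 7 pairs) and between -0.25 and 0.28 (FOXJ3, 12 pairs). No such values of differently numbered embryos are given here, so these do not decide whether the numbers pair embryos. With the number as a replicate block, in a fit that kept only the 14 TBP and 24 FOXJ3 embryos whose number occurs in both arms, 3 partners were lower upon TBP LOF (Letm2 at -1.60, adjusted p = 0.143) and 0 were called upon FOXJ3 LOF. Letm2 and Letmd1 had at most 32 reads in an embryo, and Slc8b1 at most 8 in TBP LOF embryos, so their values rest on few counts.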

Other observations

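The element that occurs 2 times in the Letm1 window occurs at least once in a promoter window of 192 other genes. Of these, 177 were tested upon FOXJ3 LOF, with a median log2 fold change of -0.06 and 0 calls, and 175 upon TBP LOF, with a median of -1.03 and 42.3% called lower. The 9 other genes that hold it 2 times or more, as Letm1 does, had medians of -0.05 and -0.61, with 33.3% called lower upon TBP LOF. Among all genes with a window the corresponding medians were -0.04 and -0.71, with 32.5% called lower upon TBP LOF. The element was picked after the Letm1 sequence was seen, and no test was made.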
